A study of Mus musculus with 6 samples.

Results

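Dendritic cells take up antigen in a tumour and present it to T lymphocytes, and they fall into subsets that are told apart by a small number of genes. Transcripts of 10 such genes were followed here in tumours of mice given luteolin, a plant flavonoid, and of control mice. The genes were taken by their symbols from the deposited table, Flt3, Itgax, Zbtb46, Xcr1, Clec9a, Batf3, Xcl1, Cd209a, Siglech and Fscn1, and all 10 were found among its 21720 gene symbols. The tumours were grown from H22, a mouse hepatocellular carcinoma cell line, injected under the skin of young adult female BALB/c mice of wild-type genotype. The control group was given 0.5% carboxymethyl cellulose sodium, the vehicle, and the luteolin group 200 mg/kg luteolin, both by gavage once a day for 21 days in 0.2 mL, starting at a tumour volume of about 50 mm3. Each group gave 3 RNA-seq libraries of whole tumour tissue, so that tumour cells, immune cells, stroma and any skin taken with the tumour were measured together. No source used here says which animal gave which library, and p values therefore measure the spread between these libraries only. The subcutaneous site and a single transplanted line limit the tumours as a model of liver cancer.

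Conventional dendritic cells arise in the bone marrow from precursors that carry the receptor Flt3 and depend on its ligand, and they share the integrin CD11c (Itgax) and the transcription factor Zbtb46. Type 1 conventional dendritic cells (cDC1) need the transcription factor Batf3, carry the chemokine receptor Xcr1 and the dead-cell receptor Clec9a, and are known for presenting tumour antigen to CD8+ T lymphocytes. T lymphocytes and natural killer (NK) cells release Xcl1, the ligand of Xcr1, which draws cDC1. Cd209a marks type 2 conventional dendritic cells (cDC2) and cells derived from monocytes, Siglech marks plasmacytoid dendritic cells, which make type I interferon, and Fscn1, an actin-bundling protein, is abundant in mature dendritic cells on their way to lymph nodes. None of these transcripts belongs to dendritic cells alone. Itgax is also made by macrophages, Zbtb46 by endothelium, and Fscn1 by many epithelial and tumour cells.

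The libraries are listed in the order of their replicate numbers, 1 to 3 in each group. Their depth was 69391357, 66256017 and 66655030 counts in the controls against 61081637, 80442954 and 63965501 in the luteolin libraries. Levels are given below as CPM, that is, counts scaled by library size after TMM normalization. Of the low values in the table, from 1 to 40, 44.8% were multiples of 4, and 1 read pair may therefore count as 4 units. A count of 0 allows up to 3 counts, which is 0.0359 to 0.0490 CPM in these libraries, or 0.144 to 0.196 CPM where a pair counts as 4. Both limits cover counting error and nothing else. Base composition differed between libraries. The Spearman correlation across genes (not independent replicates) between GC content and a library's deviation from the mean library was 0.43, -0.17 and -0.53 in the controls against -0.18, 0.44 and -0.37 in the luteolin libraries. Luteolin replicate 2 had the largest total, and the lowest correlation between libraries of a group was 0.892, between luteolin replicates 2 and 3.

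Transcripts of 8 of the 10 genes were higher in the luteolin group by the threshold of the study, which asks for an unadjusted p under 0.05 and a log2 fold change over 1, and 0 were lower. The exceptions were Clec9a and Zbtb46. Of the 8, Xcr1 and Xcl1 passed the filter on low counts through the luteolin libraries, the controls alone falling short. With no such filter 8 of 10 were higher, beside 10.9% of all genes. A minimum of 10 counts in every library removed Xcr1 and Xcl1, and 6 of 8 were higher, beside 10.9%. Over the 14963 genes tested, 11.3% were higher and 1.52% lower by the same threshold, which is the background for the count. The median log2 fold change was 1.56 over the 10 genes and -0.01 over all genes tested. When the p values of the quasi-likelihood test (edgeR) were adjusted by Benjamini-Hochberg over all genes, 0 of the 10 were called at 0.05, while 8 had an unadjusted p under 0.05. Over all genes, 1.34% were higher and 0.187% lower at that adjusted p. DESeq2 called 7 of the 10 higher at an adjusted p under 0.05, beside 8.83% of the genes it tested, and limma's voom with sample quality weights called 6, beside 12.6%. In 7 genes every luteolin library lay above every control library, a pattern found in 15.9% of all genes tested, and 12.8% of all genes lay wholly below. In bulk tumour RNA, more cells of a type and more RNA per cell cannot be told apart.

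**Figure D1:**
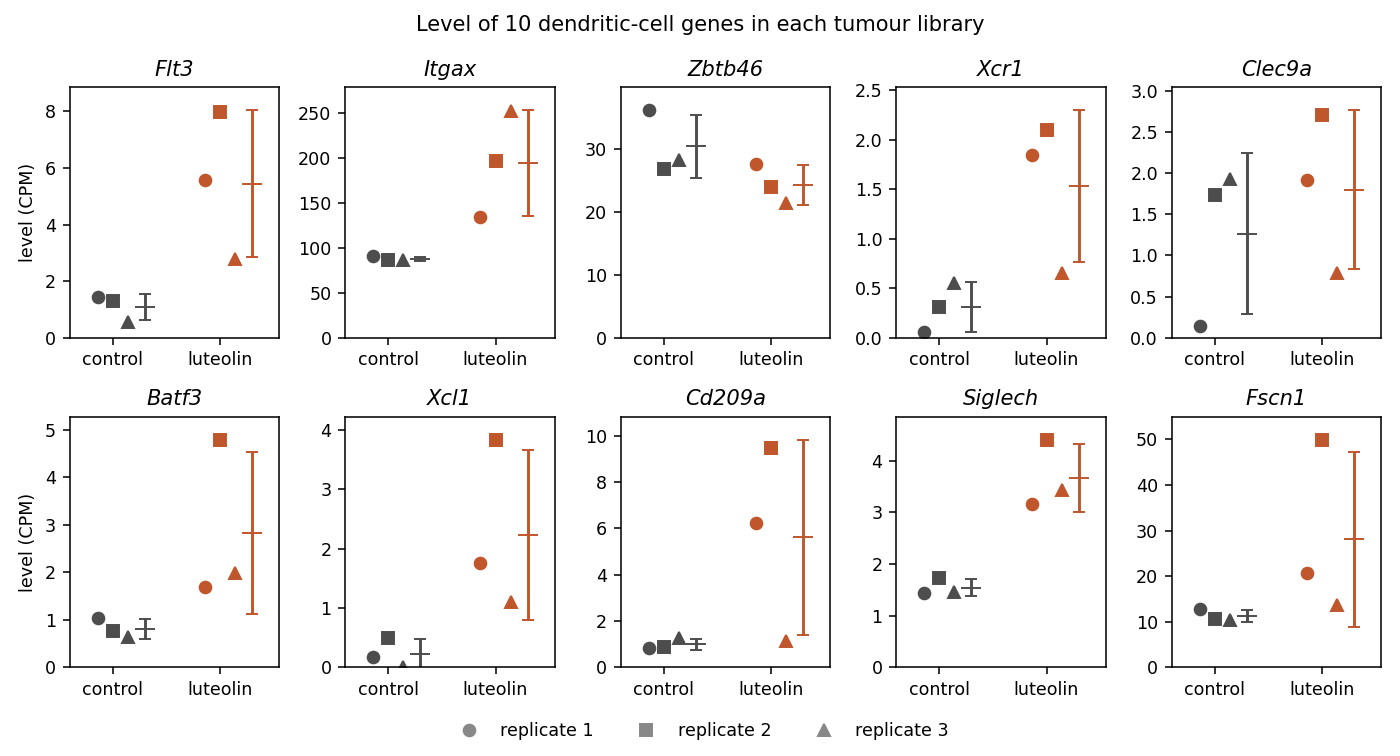
Level of each of the 10 dendritic-cell genes in CPM (scaled counts, linear axes from 0) in the 3 control (grey) and 3 luteolin (orange) libraries, the marker shape giving the replicate number, with the mean and SD of each group (n = 3) beside the points. Luteolin replicate 2 (square) is the highest library for 8 genes, and the groups overlap for Cd209a, Clec9a and Zbtb46.

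The luteolin libraries were unequal. Luteolin replicate 2 was the highest of all libraries for 8 genes, the exceptions being Itgax, highest in luteolin replicate 3, and Zbtb46, highest in control replicate 1. Luteolin replicate 3 was the lowest luteolin library for 7 genes. Each library left out lowered the count of genes called higher. It was 4 without control replicate 1, 6 without control replicate 2, control replicate 3 or luteolin replicate 1, 5 without luteolin replicate 2 and 7 without luteolin replicate 3. In the same order of omission the share of all tested genes called higher was 8.58%, 8.38%, 9.57%, 11.2%, 7.52% and 13.6%. Flt3 and Siglech kept their calls in all 6 omissions, and Flt3 alone in each of the 16 alternative settings run, which include them.

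The 10 genes differed widely in level. Per kilobase of transcript, Itgax had the highest mean in both groups, with 21.7 CPM per kb in control tumours and 47.9 CPM per kb in luteolin tumours. In the control group Zbtb46 with 5.75 and Fscn1 with 4.22 CPM per kb came next, and the lowest library of each of these 3 genes lay above the highest library of the gene after it. Batf3, Cd209a, Siglech, Xcl1, Clec9a and Flt3 followed with means from 1.01 down to 0.300 CPM per kb, and neighbours in this order overlapped. Xcr1 was the lowest of the 10, apart from Flt3 in the controls but not from Clec9a in the luteolin libraries, with 0.0692 CPM per kb in control tumours and 0.344 CPM per kb in luteolin tumours. In the luteolin group Fscn1 with 10.5 CPM per kb stood above Zbtb46 with 4.59, and Xcl1 moved from the seventh to the fourth place with 4.26 CPM per kb. The places from Fscn1 down to Batf3 overlapped between neighbours in that group, as did those from Siglech down to Xcr1, so their order is not fixed by these libraries.

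Flt3, the receptor through which dendritic-cell precursors receive their growth signal, was 4.96 times as high in the luteolin group. Its level was 1.43, 1.28 and 0.574 CPM in the controls against 5.58, 7.97 and 2.77 CPM in the luteolin libraries. Every luteolin library lay above every control library, the nearest being luteolin replicate 3 and control replicate 1. This gave a log2 fold change of 2.31 (SE 0.57), with an adjusted p of 0.0977 by edgeR. The transcript of its ligand, Flt3l, chosen after its values were seen, had 6.57 ± 0.56 CPM in control tumours and 7.97 ± 3.88 CPM in luteolin tumours (SD, n = 3 per group) and did not pass the test, with an adjusted p of 0.749 by edgeR.

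Itgax, the integrin chain of CD11c, was the most abundant of the 10 and had the smallest p. The controls had 90.4, 86.6 and 86.1 CPM, against 134, 195.8 and 252.1 CPM in the luteolin libraries. The controls lay close together, all luteolin libraries lay above them, and the highest was luteolin replicate 3. Its log2 fold change was 1.15 (SE 0.24), with an adjusted p of 0.0693 by edgeR. It fell below the fold threshold without luteolin replicate 3, at 0.86, and with offsets for GC content and gene length, at 0.91. The same held with voom, at 0.84, and with the replicate block and offsets together, at 0.84.

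Zbtb46, which separates conventional dendritic cells from macrophages, did not follow Flt3 and Itgax. It had 36.3, 27.0 and 28.4 CPM in the controls against 27.7, 23.9 and 21.4 CPM in the luteolin libraries. The groups overlapped at luteolin replicate 1, and the highest value was that of control replicate 1. Its log2 fold change was -0.33 (SE 0.20), with an adjusted p of 0.414 by edgeR. The value moved with the setting, to -0.54 with offsets for GC content and gene length and -0.10 with voom. With the offsets its unadjusted p was under 0.05, and its fold stayed short of the study's threshold in all 16 alternatives.

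Promoter windows of these 3 genes are shown because transcripts of the first pair were higher and that of the last was not. Each window holds the 250 bases before the start of the RefSeq transcript on the build GRCm38.p6, read 5′ to 3′ along the strand of the gene. Capitals mark the AP-1 letters TGANTCA, which read the same on both strands. The windows lie at chr5:147400490-147400739 on the minus strand for Flt3, chr7:128129300-128129549 on the plus strand for Itgax and chr2:181424389-181424638 on the minus strand for Zbtb46.
Flt3: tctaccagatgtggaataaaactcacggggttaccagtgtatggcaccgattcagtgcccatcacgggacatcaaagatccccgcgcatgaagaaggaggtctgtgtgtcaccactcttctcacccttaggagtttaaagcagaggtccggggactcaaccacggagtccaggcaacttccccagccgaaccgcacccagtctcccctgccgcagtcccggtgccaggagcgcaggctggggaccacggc
Itgax: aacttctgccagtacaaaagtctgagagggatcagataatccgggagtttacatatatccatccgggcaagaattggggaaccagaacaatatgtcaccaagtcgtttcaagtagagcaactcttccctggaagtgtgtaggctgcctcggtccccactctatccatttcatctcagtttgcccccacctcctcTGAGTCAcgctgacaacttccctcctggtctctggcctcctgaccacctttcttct
Zbtb46: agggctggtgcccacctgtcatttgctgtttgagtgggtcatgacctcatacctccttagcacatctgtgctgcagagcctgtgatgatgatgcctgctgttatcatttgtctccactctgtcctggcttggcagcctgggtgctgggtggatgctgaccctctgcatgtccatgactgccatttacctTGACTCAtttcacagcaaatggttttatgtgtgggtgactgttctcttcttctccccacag
The AP-1 letters begin at base -56 from the start in Itgax and at -61 in Zbtb46, and they were not found in Flt3. They were found in 2 of the 10 windows and in 6.75% of 32851 promoter windows of the same length. A match is a description of the letters only.

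**Figure D2:**
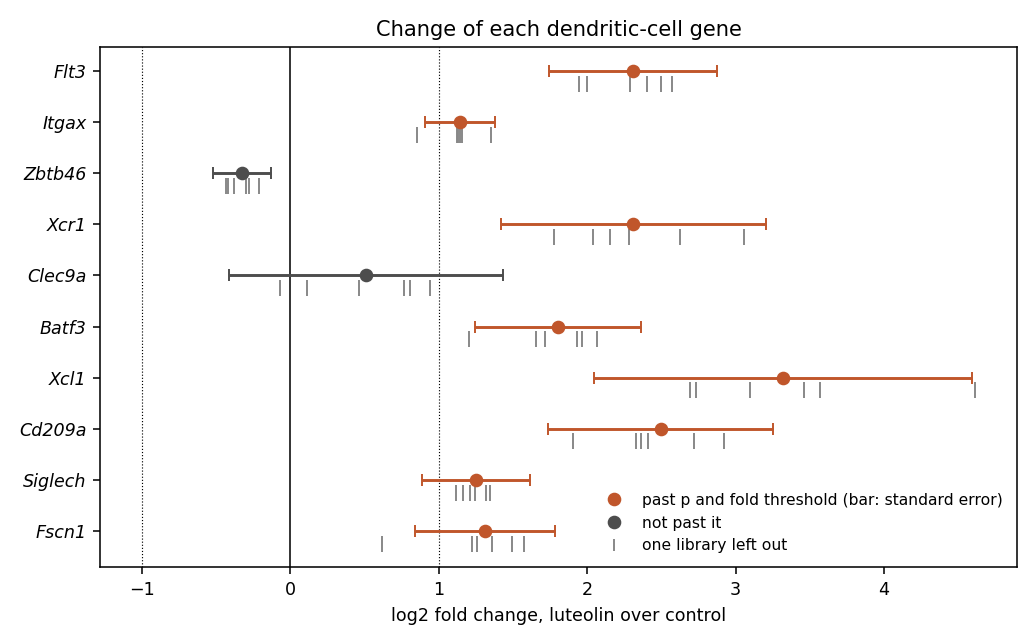
Log2 fold change of each of the 10 genes, luteolin over control, from edgeR (points, with bars of 1 standard error), in orange where p is under 0.05 and the log2 fold change over 1. Grey ticks under each point give the value with each of the 6 libraries left out in turn; Fscn1 falls to 0.62 without luteolin replicate 2 and Clec9a to -0.07 without control replicate 1, and dotted lines mark a log2 fold change of 1 in either direction.

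Of the 3 genes of cDC1 followed here, Xcr1 and Batf3 were higher at the threshold and Clec9a was not called, and the differences among them were not tested. Xcr1 had 4, 20 and 36 counts in the controls against 113, 175 and 42 counts in the luteolin libraries. In CPM these were 0.0572, 0.309 and 0.558 against 1.84, 2.09 and 0.657. All luteolin libraries lay above the controls, but luteolin replicate 3 exceeded control replicate 3 by few counts, and the 4 counts of control replicate 1 may be a single read pair. Xcr1 had a log2 fold change of 2.31 (SE 0.89), with an adjusted p of 0.210 by edgeR. The call was lost without control replicate 1 (1.78), control replicate 2 (2.28), luteolin replicate 1 (2.15) or luteolin replicate 2 (2.04). It was also lost with the replicate number as a block, at a log2 fold change of 2.59.

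Batf3, which cDC1 need for their development, had 1.03, 0.757 and 0.636 CPM in the controls against 1.70, 4.79 and 1.99 CPM in the luteolin libraries. Luteolin replicate 2 stood far above the rest, and the other luteolin libraries also lay above every control. Batf3 had a log2 fold change of 1.80 (SE 0.56), with an adjusted p of 0.149 by edgeR. It was 1.20 without luteolin replicate 2 and still called, and 1.66 without control replicate 3, where the call was lost.

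Clec9a, through which cDC1 recognise dead cells, had 0.143, 1.73 and 1.92 CPM in the controls against 1.91, 2.71 and 0.782 CPM in the luteolin libraries. Control replicate 1, with 10 counts, was the lowest library, and luteolin replicate 3 lay below the other controls. The log2 fold change was 0.51 (SE 0.92), with an adjusted p of 0.813 by edgeR, and it turned to -0.07 without control replicate 1.

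The promoter window of Batf3 is shown for the PU.1 letters GAGGAA, in capitals and searched on both strands, which were found at base -153 of this window and in none of the other 9. PU.1 is a transcription factor of myeloid and dendritic cells. The window lies at chr1:191098164-191098413 on the plus strand of GRCm38.p6.
Batf3: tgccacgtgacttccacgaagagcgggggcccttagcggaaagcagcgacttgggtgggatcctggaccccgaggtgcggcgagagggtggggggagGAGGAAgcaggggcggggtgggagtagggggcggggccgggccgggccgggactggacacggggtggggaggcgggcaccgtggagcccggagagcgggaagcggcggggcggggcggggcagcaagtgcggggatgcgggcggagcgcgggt
These letters were found in 23.3% of 32851 promoter windows of the same length.

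Xcl1, the chemokine that binds Xcr1, showed the largest fitted change of the 10 genes and the largest error. It had 12, 32 and 0 counts in the controls against 108, 320 and 70 counts in the luteolin libraries. The mean level was 0.222 ± 0.251 CPM in control tumours and 2.23 ± 1.43 CPM in luteolin tumours (SD, n = 3 per group), and every luteolin library lay above every control. Its fitted log2 fold change was 3.32 (SE 1.27), with an adjusted p of 0.208 by edgeR. The call was lost without control replicate 1 (3.10), luteolin replicate 1 (3.46) or luteolin replicate 2 (2.70). Xcl1 is made by T lymphocytes and NK cells, and all 9 T-cell genes and 5 of the 6 NK-cell genes tested were higher too. Relative to Cd3e, a chain of the T-cell receptor complex, the mean log2 ratio of Xcl1 was -3.57 in control tumours and -1.75 in luteolin tumours. The difference was 1.81 (p = 0.4, exact two-sided permutation test). It was 1.24 relative to Cd8a (p = 0.5) and 1.83 relative to Ncr1, an NK-cell receptor (p = 0.3), by the same exact test, whose smallest p for 3 libraries against 3 is 0.1. All 3 adjusted values were 0.5. Without control replicate 3, where Xcl1 had 0 counts, the differences were 0.72, 0.19 and 0.36, and with a prior count of 0.5 in place of 2 they were 2.52, 1.95 and 2.52.

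Of the 12 genes of the cDC1 list, 4 were higher at the study's threshold, 0 were lower, and the median log2 fold change was 0.73. The count was 2 without luteolin replicate 2. Beside Xcr1 and Batf3 these were Ifi205, an interferon-induced gene, and Irf8, a transcription factor of cDC1. Ifi205 had 77, 206 and 301 counts in the controls against 1040, 1060 and 422 in the luteolin libraries. Its log2 fold change was 2.02 (SE 0.60), with an adjusted p of 0.138 by edgeR. Irf8, chosen after its values were seen, had a log2 fold change of 1.28 (SE 0.43) and an adjusted p of 0.170 by edgeR. Cadm1, an adhesion molecule that epithelial and tumour cells also make, was the most abundant gene of the list, with 13490, 11610 and 10777 counts in the controls against 7501, 6482 and 11177 in the luteolin libraries, and its adjusted p was 0.359 by edgeR.

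Cd209a, a lectin of cDC2 and monocyte-derived cells, was higher at the threshold although the groups overlapped. It had 0.830, 0.865 and 1.29 CPM in the controls against 6.22, 9.48 and 1.13 CPM in the luteolin libraries. Luteolin replicates 1 and 2 were several times above the controls, while luteolin replicate 3 lay within them. Cd209a had a log2 fold change of 2.50 (SE 0.76), with an adjusted p of 0.142 by edgeR. The call was lost without control replicate 1, where the log2 fold change was 2.33, and with the replicate number as a block, where it was 2.16.

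Of the 9 cDC2 genes tested, 5 were higher, 1 was lower, and the median log2 fold change was 1.11. The count of higher genes was 3 without control replicate 1, with voom or with the offsets. Sirpa, an inhibitory receptor of cDC2 and macrophages, had 43.2 ± 2.26 CPM in control tumours and 93.2 ± 6.24 CPM in luteolin tumours (SD, n = 3 per group), and its log2 fold change of 1.11 (SE 0.14) had an adjusted p of 0.0331 by edgeR. This adjusted call, like every other of a higher gene in the table, was lost when control replicate 1, 2 or 3 or luteolin replicate 1 was left out. Cd209d, a lectin of the same family as Cd209a, had 19, 17 and 16 counts in the controls against 466, 1658 and 88 in the luteolin libraries. Its adjusted p was 0.0577 by edgeR. The Cd209 genes are related to each other, as are Clec10a and Mgl2. Reads may be divided among related genes, which was not measured, and the counts of these genes are uncertain to that extent. Mgl2, chosen after its values were seen as the gene that was lower, had 79.9 ± 3.79 CPM in control tumours and 32.0 ± 22.3 CPM in luteolin tumours (SD, n = 3 per group). Its log2 fold change was -1.32 (SE 0.45), with an adjusted p of 0.172 by edgeR. Itgam, the integrin chain CD11b of myeloid cells, was the most abundant of the list, with 76.8 ± 32.8 and 89.6 ± 28.7 CPM, and did not pass the test.

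The promoter window of Cd209a was the single one of the 10 with the IRF letters AANNGAAA, searched on both strands and set in capitals. They begin at bases -230 and -9, the latter on the opposite strand, and were found in 21.3% of 32851 windows of the same length. The window lies at chr8:3748985-3749234 on the minus strand of GRCm38.p6.
Cd209a: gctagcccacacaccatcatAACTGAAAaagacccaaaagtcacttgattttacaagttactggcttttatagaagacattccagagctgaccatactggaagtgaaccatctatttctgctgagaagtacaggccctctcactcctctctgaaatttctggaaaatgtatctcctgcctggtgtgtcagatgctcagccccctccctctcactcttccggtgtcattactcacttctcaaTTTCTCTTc
The other 9 windows held none of these letters, which says nothing of binding elsewhere.

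Siglech, a receptor of plasmacytoid dendritic cells, was higher in the luteolin group with little spread between libraries. It had 1.43, 1.73 and 1.46 CPM in the controls against 3.17, 4.40 and 3.43 CPM in the luteolin libraries. The groups did not overlap, and the SD was 0.165 CPM in control tumours and 0.652 CPM in luteolin tumours. The log2 fold change was 1.25 (SE 0.36), with an adjusted p of 0.132 by edgeR. Without each library in turn it was between 1.12 and 1.34. The call was lost with voom, at 0.98, and with the replicate block and offsets for GC content and gene length together, at 1.05.

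Of the 11 plasmacytoid genes tested, 6 were higher and 0 lower, with a median log2 fold change of 1.26. Ccr9, a homing receptor, had 0.735 ± 0.372 CPM in control tumours and 4.66 ± 1.39 CPM in luteolin tumours (SD, n = 3 per group). Its log2 fold change was 2.66 (SE 0.52), with an adjusted p of 0.0620 by edgeR. Ly6d, which is carried by lymphoid precursors of plasmacytoid cells and by keratinocytes, had 9, 0 and 0 counts in the controls against 464, 9517 and 20 in the luteolin libraries. Its adjusted p was 0.103 by edgeR, and it passed the filter on low counts only through the luteolin libraries. The keratinocyte markers followed the same order, with a summed level of 371, 8625 and 15.2 CPM in the luteolin libraries, and their part in the value of Ly6d was not tested. Bst2, a surface protein that interferon induces in many cells, was the most abundant of the list and had 72.0 ± 15.7 against 74.1 ± 24.2 CPM, with an adjusted p of 0.955 by edgeR.

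Fscn1, the actin-bundling protein fascin, was higher in the luteolin group, with a single library far above the rest. It had 12.9, 10.6 and 10.4 CPM in the controls against 20.7, 49.9 and 13.6 CPM in the luteolin libraries. Luteolin replicate 2 was more than double luteolin replicate 1, and luteolin replicate 3 lay just above the highest control. The log2 fold change was 1.32 (SE 0.47), with an adjusted p of 0.187 by edgeR. It was 0.62 without luteolin replicate 2, no longer past the threshold, and the call was also lost without control replicate 1 (1.36), control replicate 2 (1.23) or control replicate 3 (1.26). Offsets for GC content and gene length gave 0.86, voom 0.87, and the replicate block and offsets together 0.81.

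Of the 14 genes of mature dendritic cells, 6 were higher, 1 was lower, and the median log2 fold change was 1.00. Cd40, through which T lymphocytes activate dendritic cells and B cells, had 5.06 ± 0.53 CPM in control tumours and 19.6 ± 3.97 CPM in luteolin tumours (SD, n = 3 per group). Its log2 fold change of 1.95 (SE 0.26) had an adjusted p of 0.0331 by edgeR, a call that was lost without control replicate 1, 2 or 3 or luteolin replicate 1. Cd200, an inhibitory ligand, had 3.91 ± 0.86 against 15.2 ± 6.05 CPM, a log2 fold change of 1.96 (SE 0.37) with an adjusted p of 0.0587 by edgeR. Ccr7, the receptor that guides mature dendritic cells to lymph nodes, and the chemokines Ccl22 and Ccl17 were chosen after their values were seen. Ccr7 had 312, 254 and 293 counts in the controls against 733, 2198 and 378 in the luteolin libraries, with an adjusted p of 0.140 by edgeR. Ccl22 and Ccl17, both ligands of Ccr4, moved in opposite directions. Ccl22 had a log2 fold change of 1.80 (SE 0.47) and Ccl17 of -1.82 (SE 0.58), the latter with 318, 225 and 176 counts in the controls against 32, 150 and 46 in the luteolin libraries. Cacnb3, a calcium channel subunit, was the most abundant of this list and did not pass the test, with a log2 fold change of 0.11 (SE 0.24).

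The list drawn up as growth and attraction signals had the highest median of the 6 lists, 1.96, with 6 of 10 tested genes higher and 0 lower. Some of its genes also act on other cells, and whether they act on dendritic cells here was not tested. The next counts are of the higher genes. Of these, 4 had an adjusted p under 0.05 with all libraries, and all 4 lost it without control replicate 1, 2 or 3 or luteolin replicate 1. Ccl5, made by T lymphocytes, NK cells and macrophages, had 4.37 ± 0.82 CPM in control tumours and 36.1 ± 14.9 CPM in luteolin tumours (SD, n = 3 per group), a log2 fold change of 3.05 (SE 0.35) with an adjusted p of 0.0331 by edgeR. Ccl4 had 1.40 ± 0.46 against 15.0 ± 5.75 CPM, a log2 fold change of 3.41 (SE 0.46), with the same adjusted p of 0.0331. Cxcl16, a membrane-bound chemokine, was the most abundant, with 55.4 ± 3.20 against 127.5 ± 30.0 CPM, a log2 fold change of 1.20 (SE 0.20) and an adjusted p of 0.0437. The fourth gene, Ccl3, was chosen after its values were seen and had a log2 fold change of 2.71 (SE 0.44), also with an adjusted p of 0.0437. Xcl1 and Ccl21a, the latter chosen after its values were seen, were among the 6 higher genes. Both passed the filter on low counts through the luteolin libraries, the controls alone falling short.

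The conventional dendritic-cell list held 5 higher and 0 lower genes of 11, with a median log2 fold change of 1.20. Kit, the receptor of stem cell factor, which mast cells and precursors also carry, had 4.01 ± 0.45 CPM in control tumours and 11.8 ± 4.29 CPM in luteolin tumours (SD, n = 3 per group). Its log2 fold change was 1.56 (SE 0.36), with an adjusted p of 0.0861 by edgeR. Traf1, a signalling adaptor of the tumour necrosis factor receptors, was the most abundant, with 200.8 ± 19.7 against 207.7 ± 12.8 CPM, and its log2 fold change was 0.05 (SE 0.14). Over the 6 lists, 58 genes were not among the 10 followed above. Of the 56 of them that were tested, 23 were higher and 2 lower at the study's threshold, 29 lay above every control library, and the median log2 fold change was 1.12. Over all genes tested, 11.3% were higher, 1.52% were lower and 15.9% lay above every control library.

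**Figure D3:**
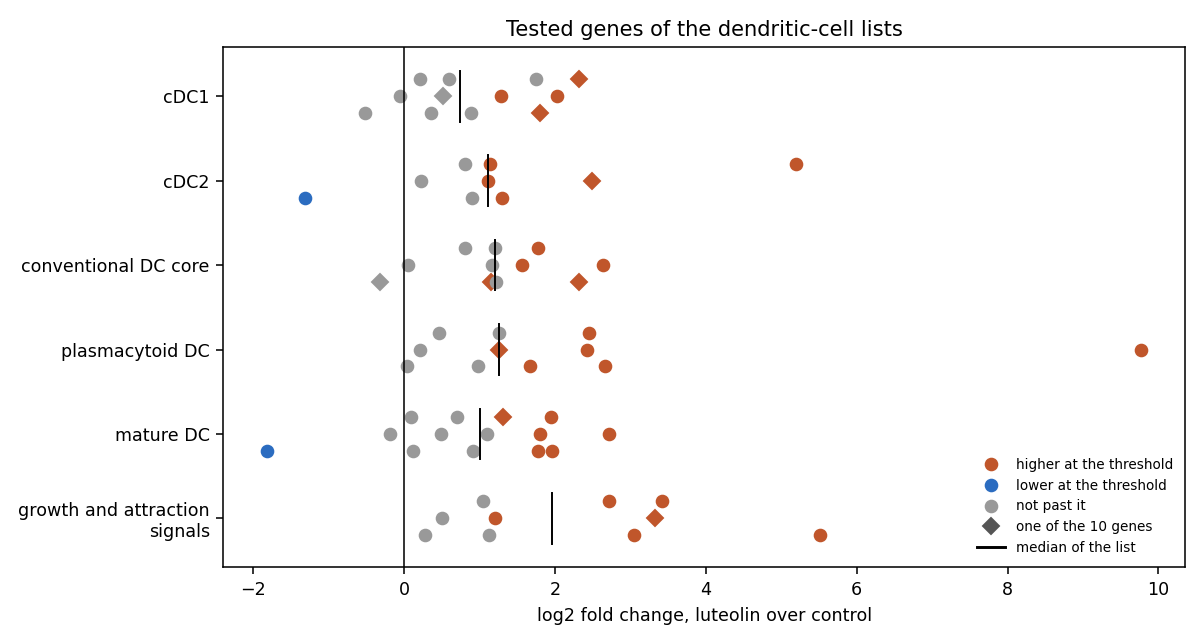
Log2 fold change, luteolin over control, of every tested gene of the 6 dendritic-cell lists, coloured by the study's threshold, with the 10 genes followed here as diamonds and a black line at the median of each list. The medians run from 0.73 for cDC1 to 1.96 for the growth and attraction signals, and the point farthest to the right is Ly6d, whose controls had 9, 0 and 0 counts.

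The 10 genes were also set against a transcript that leukocytes share, to ask whether they moved beyond it. Ptprc, which encodes CD45 and is carried by nearly all leukocytes, had 46.1, 56.6 and 80.6 CPM in the controls against 126, 148 and 134.3 CPM in the luteolin libraries. Its log2 fold change was 1.16 (SE 0.23), with an adjusted p of 0.0639 by edgeR. The log2 ratio of each gene to Ptprc, from log2 CPM with a prior count of 2, was compared by an exact two-sided permutation test, adjusted over the 10 genes. Itgax had a mean log2 ratio of 0.56 ± 0.44 in control tumours and 0.47 ± 0.41 in luteolin tumours (SD, n = 3 per group), a difference of -0.09 (exact p = 0.7). The differences of Siglech, 0.04, and of Fscn1, -0.09, were as small, with an exact p of 1 and 0.9. Flt3 had a difference of 1.06 (exact p = 0.3), Xcr1 of 1.25 (exact p = 0.3) and Xcl1 of 2.57 (exact p = 0.2). With 1 library left out these differences fell as low as 0.45 for Flt3 and 1.20 for Xcl1, both without control replicate 3, and 0.64 for Xcr1, without control replicate 1. Cd209a had 0.84 (exact p = 0.4), Batf3 0.45 (exact p = 0.5) and Clec9a -0.24 (exact p = 0.8). Without luteolin replicate 2 the differences of Cd209a and Batf3 were 0.29 and 0.06, and without control replicate 1 that of Clec9a was -1.20. The difference of Clec9a turned to 0.33 without control replicate 2, 0.15 without control replicate 3 and 0.26 without luteolin replicate 3. In all 9 genes the groups overlapped. Zbtb46 was the exception, with a ratio lower in every luteolin library, a difference of -1.51, at the smallest p the design allows, 0.1 by the exact test, and 0.75 after adjustment. Ptprc itself was higher, and the median log2 fold change over all genes tested was -0.01. A gene that did not move would therefore also have a lower ratio. How many of all genes had a ratio lower in every luteolin library was not counted.

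**Figure D4:**
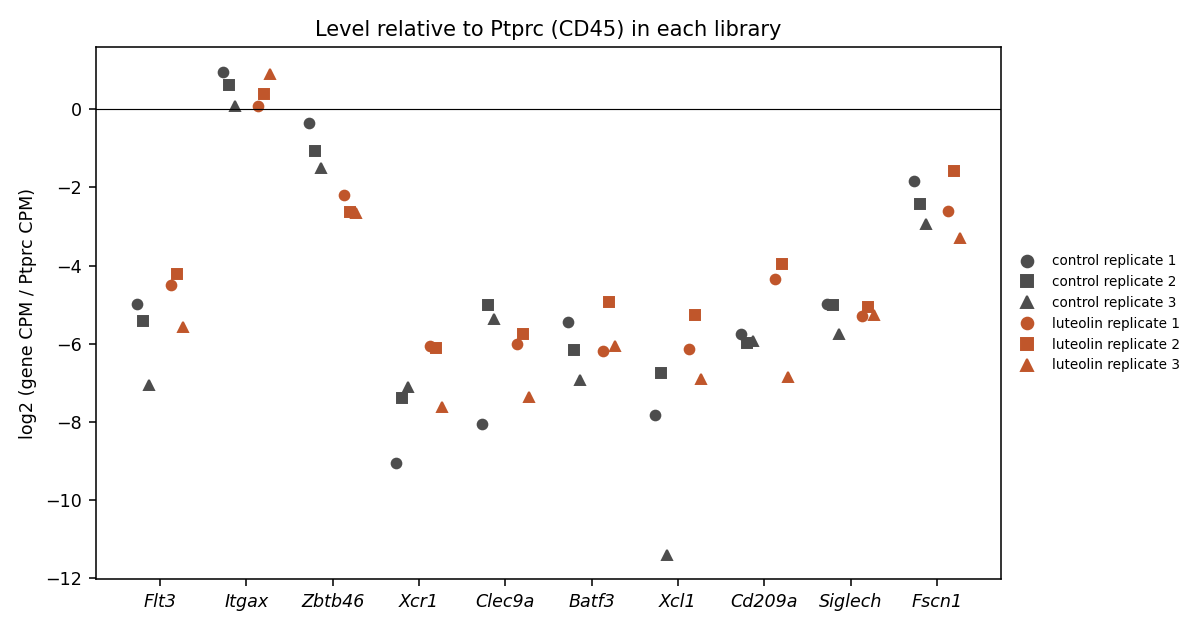
Log2 ratio of each gene's CPM to that of Ptprc (CD45) in every library, control in grey and luteolin in orange, the marker shape giving the replicate number. The luteolin libraries lie wholly below the controls for Zbtb46, the groups overlap for the other genes, and the lowest point is Xcl1 in control replicate 3, where it had 0 counts. Ptprc itself was higher in the luteolin libraries, so a gene that did not move would also lie lower there.

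Markers of other cells differed between the groups as well. All 9 T-cell genes were higher at the study's threshold, with a summed level of 11.6, 14.9 and 14.1 CPM in the controls against 45.1, 80.8 and 50.9 CPM in the luteolin libraries. The most abundant were Cd4, with 3.68 against 11.4 CPM, and Cd3g, with 2.06 against 10.3 CPM. Of the 6 NK-cell genes tested, 5 were higher, among them Prf1 with 2.34 against 14.1 CPM, while Eomes, the most abundant, had 82.0 against 45.2 CPM and Klrd1 was at 0 in all controls. The NK-cell list summed to 74.2, 91.9 and 102.6 CPM in the controls against 81.1, 97.7 and 83.9 CPM in the luteolin libraries. Neutrophil genes were higher in 5 of 6, led by Csf3r with 14.3 against 67.9 CPM and S100a9 with 1.80 against 46.7 CPM. The B-cell genes Cd79b and Cd79a had 1.26 against 5.71 and 1.70 against 4.82 CPM, and 2 of 5 tested genes were higher, or 1 without control replicate 1 or 3 or luteolin replicate 2 or 3.

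Macrophage and monocyte genes bear on Itgax, Cd209a and Sirpa, which those cells also make. Of 11 macrophage genes 3 were higher, or 6 without luteolin replicate 1, and the summed level was 2289, 1950 and 2151 CPM in the controls against 2460, 3772 and 3360 CPM in the luteolin libraries. Lyz2, the most abundant, had 1046 against 1230 CPM and C1qa 211.9 against 368.4 CPM, and neither was called. Of 5 monocyte genes 2 were higher, with a sum of 105.9, 159.8 and 253.7 CPM in the controls against 274, 225.7 and 809.5 CPM in the luteolin libraries. Chil3 had 874, 492 and 37078 counts in the luteolin libraries, and F13a1 had 103.8 against 103.7 CPM. The part of macrophages and monocytes in the values of Itgax and Cd209a was not tested.

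Keratinocyte markers varied most between the luteolin libraries. The keratinocyte list summed to 4.09, 4.34 and 3.23 CPM in the controls against 371, 8625 and 15.2 CPM in the luteolin libraries, and 6 of 6 tested genes were higher. The count was 1 with voom or with a minimum of 10 counts in every library, and 4 with DESeq2 or with values divided by 4. Krt14, the most abundant, had 0 counts in every control and 9606, 203754 and 277 in the luteolin libraries, and Krt5, Krt1, Dsg3, Lor and Krtdap were also at 0 in all controls. Krt14, Krt5, Krt1 and Krtdap thus passed the filter on low counts only through the luteolin libraries, and Dsg3 and Lor did not pass it. Krt10 had 168210 counts in luteolin replicate 2. Cd207, which marks Langerhans cells, the dendritic cells of the epidermis, did not pass the filter on low counts, with 0, 5 and 2 counts in the controls against 42, 855 and 4 in the luteolin libraries. Of the other 2 genes of the Langerhans list 0 were called, Epcam, which epithelial cells make, with 126.9 against 69.8 CPM. In 1 gene of this list the threshold was passed with DESeq2, with no filter on low counts, and without control replicate 1, control replicate 2 or luteolin replicate 3. Luteolin replicate 2 was thus highest both for the keratinocyte list and for 8 of the 10 dendritic-cell genes. Without it, 5 of the 10 were still higher at the threshold, Flt3, Itgax, Batf3, Cd209a and Siglech, beside 7.52% of all genes tested. Luteolin replicate 1 remained in that fit, with 371 CPM of keratinocyte genes. The part of skin in the values of the 10 genes was not tested.

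Fibroblast genes were higher in 4 of 6, Col3a1 with 616 against 1446 CPM and Col1a1 with 396.8 against 1052 CPM. Endothelial genes, which bear on Zbtb46, were higher in 3 of 6. The count was 1 without luteolin replicate 2, with voom, or with the replicate block and offsets together. Pecam1 had 44.4 against 91.8 CPM and Cdh5 23.8 against 37.8 CPM, the latter not called. The endothelial genes summed to 83.9, 86.6 and 105.4 CPM in the controls against 169.9, 268.4 and 104.7 CPM in the luteolin libraries, and their part in the value of Zbtb46 was not tested. The hepatocyte list, with 1 of 9 tested genes higher, or 6 genes without control replicate 2, was used to check the label of the tumour line. Krt18 had 246.9 against 212.0 CPM and Afp, alpha-fetoprotein, 56.5 against 37.8 CPM, present in all libraries and not called. Hnf4a, a transcription factor that defines hepatocytes, had no more than 20 counts in any library, and Alb ranged from 56 to 8118 counts. Both were chosen after their values were seen, as were Klrd1 and the genes named beside Krt14 as at 0.

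**Figure D5:**
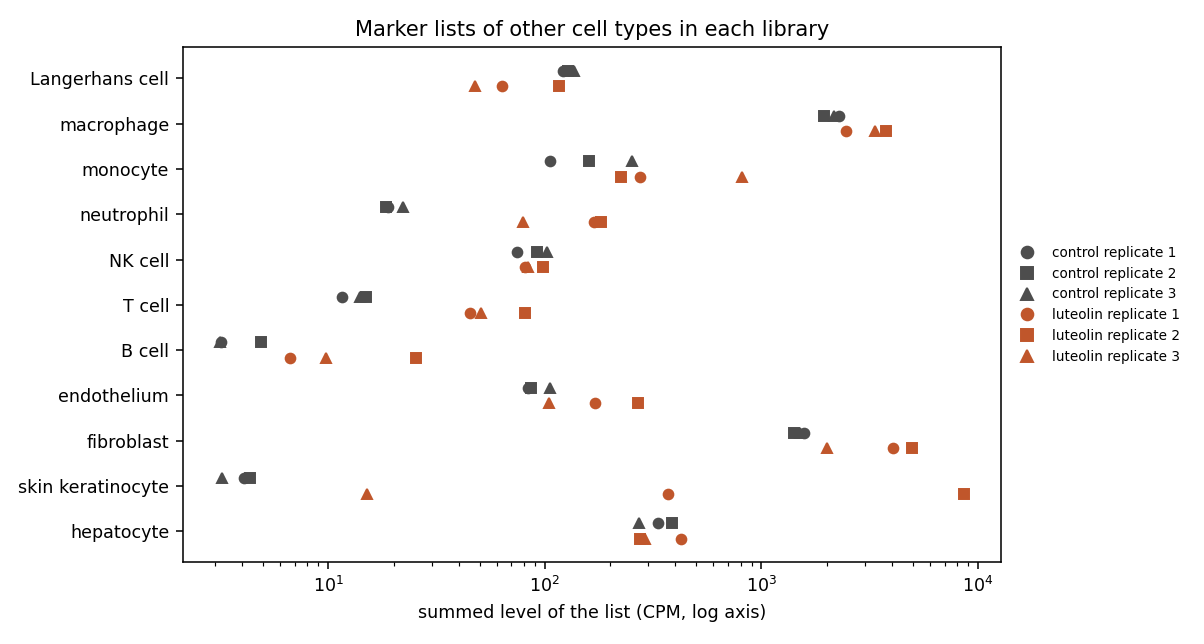
Summed level of the marker list of each other cell type in every library (CPM, log axis), control in grey and luteolin in orange, the marker shape giving the replicate number. The keratinocyte list spans 3.23 to 8625 CPM, far more than any other list, and the T-cell and neutrophil lists are among those that separate the groups.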

How the data were processed

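The authors deposited 1 table of whole-number estimated counts per gene symbol in 6 libraries, not scaled between libraries, and 0 of its sample columns were left unused. The submitters' processing notes name bcl2fastq 2.0, HISAT2, StringTie and DESeq2 and the builds rn6 and mm39 without their roles, and the counting tool, annotation and use of strand are not given in the sources used here. GENCODE M21 held 21053 of the 21720 symbols and 28 more under an older symbol, and gave their lengths and GC content.

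Counts were compared in R 4.3.3 with edgeR 4.0.16 (TMM, filterByExpr, quasi-likelihood test, no covariates, Benjamini-Hochberg adjustment over the 14963 genes tested). Log2 CPM had a prior count of 2. Alternatives were DESeq2 1.42.0, voom with sample quality weights (limma 3.58.1), RLE and upper-quartile normalization, no filter, a minimum of 10 counts in every library, values divided by 4, the replicate number as a block, offsets for GC content (spline of 4 degrees of freedom) and length (3 degrees), block and offsets together, and omission of each library. The pipeline was tested on simulated data. Promoter windows came from the RefSeq annotation of GRCm38.p6.

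The 10 genes and all lists were chosen with earlier results of these data known. Named from each dendritic-cell list were the 2 genes with the smallest p and the most abundant, from each other list the 2 most abundant, and for 4 genes the 3 most alike across libraries. Others are said to be chosen after their values were seen. The study's other experiments were not analysed here.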

Additional observations from a re-analysis of the deposited data

How the results depend on the processing

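Flt3 kept its call at the study's threshold in all 16 alternatives. Of the 10 genes, 5 were called higher with voom, beside 11.7% of all genes, and 5 with the replicate block and GC and length offsets, beside 8.61%, and 4 to 7 with 1 library left out; 0 were called lower in any setting. At an adjusted p under 0.05 the count was 7 with DESeq2, 6 with voom, 1 with a minimum of 10 counts, 1 with the replicate block and offsets, and 0 to 1 with a library left out. The minimum of 10 counts removed Xcr1 and Xcl1. Over the table, genes lower at the study's threshold numbered 498 with voom, 464 with offsets and 466 with both block and offsets, and with a library left out 1139 to 2104 were higher and 140 to 305 lower. Genes higher at the adjusted p numbered 1543 with DESeq2, 1886 with voom, 345 with the minimum, 327 with values divided by 4, 34 with the replicate block, 591 with offsets, 552 with both, and 0 to 276 with a library left out; genes lower numbered 415, 1311, 47, 46, 1, 351 and 166 in the same order and 0 to 36. The deviations of same-numbered libraries correlated at -0.20, -0.09 and 0.06, and those of differently numbered libraries at -0.124 to 0.2. With 3 libraries per group these values cannot tell whether the replicate numbers mark a shared batch. With the replicate block, Xcr1 had a log2 fold change of 2.59 and Cd209a of 2.16, neither past the threshold. The fold fell below the threshold for Itgax with voom (0.84), offsets (0.91) and both block and offsets (0.84), for Fscn1 likewise (0.87, 0.86 and 0.81), and for Siglech with voom (0.98). With both block and offsets Siglech, at 1.05, no longer passed. With a library left out, log2 fold changes ranged from 1.78 to 3.05 for Xcr1, 2.70 to 4.62 for Xcl1, -0.067 (without control replicate 1) to 0.94 for Clec9a, 1.20 to 2.06 for Batf3, 1.90 to 2.92 for Cd209a, 0.86 to 1.35 for Itgax, 1.12 to 1.34 for Siglech, -0.43 to -0.21 for Zbtb46 and 0.62 to 1.58 for Fscn1. With the replicate block the cDC2 list held 3 higher genes and the hepatocyte list 2, and with both block and offsets these lists held 3 each and the endothelial list 1. The dendritic-cell lists together held 26 to 34 higher and 1 to 2 lower genes with a library left out, and 25 to 34 higher and 2 to 3 lower in the other settings. Ratios to Ptprc ranged from -1.20 to 0.33 for Clec9a, -0.33 to 0.11 for Itgax, -0.22 to 0.17 for Siglech and -0.55 to 0.32 for Fscn1, and Siglech turned to -0.093 relative to the mean of 3 leukocyte genes. The causes were not tested. Depth limits Xcr1 and Xcl1, whose controls had 0 to 36 counts.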

Other observations

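For Xcr1, Cd209a, Siglech and Fscn1, the 3 genes whose log2 CPM was most alike over the 6 libraries belonged to none of the 6 dendritic-cell lists. For Xcr1 the 3 most alike were Atp6v1d, a proton pump subunit, with a Pearson r of 0.997, Csgalnact1 with 0.997 and Efemp1, an extracellular matrix protein, with 0.996, and 119 genes had an r above 0.95. For Cd209a they were Entpd3 with 0.995, Stard8 with 0.993 and the collagen Col3a1 with 0.990, of 109 genes above 0.95. For Siglech they were Arfrp1 with 0.997, the chemokine Ccl8 with 0.997 and Prrt1 with 0.992, of 328. For Fscn1 they were the tight junction gene Cldn4 with 0.997, Qsox1 with 0.997 and Adcy3 with 0.997, of 451. These are descriptions over 6 libraries that share the difference between the groups, depth and base composition.

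Among these genes Ccl8, an attractant of monocytes and T lymphocytes, had 6951, 8123 and 7047 counts in the controls against 27311, 62251 and 34286 in the luteolin libraries, a log2 fold change of 2.37 (SE 0.23) with an adjusted p of 0.0302 by edgeR. Cldn4 had 56, 45 and 33 counts in the controls against 203, 2532 and 68 in the luteolin libraries. Efemp1 had 2, 36 and 71 counts in the controls against 884, 1661 and 120 in the luteolin libraries.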
